A study of Homo sapiens with 4 samples.

Results

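The 33 genes described here encode RNA-binding proteins that steer pre-mRNA splicing. They comprise 19 heterogeneous nuclear ribonucleoprotein (hnRNP) genes, 12 SR genes (10 SRSF genes with TRA2A and TRA2B) and the cold-inducible RBM3 and CIRBP. They were taken by gene symbol from 58735 genes, and each symbol matched 1 row. The RNA came from OMM2.3 cells, a uveal melanoma line established from a metastasis in the liver, and was sequenced as 4 libraries, 1 for each group. A control was set beside CCCP alone, DHA alone, and both compounds at once (the combination). All were grown in serum-supplemented medium. CCCP is a protonophore that collapses the mitochondrial membrane potential. DHA is not written out in the labels. Doses, durations and what the control received were not given in the sources used here.

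hnRNP proteins coat nascent transcripts and often keep splice sites or exons from being used. SR proteins carry a domain rich in arginine and serine, bind exonic enhancers and recruit the splicing machinery, and kinases of the SRPK and CLK families control them. Several members of both groups hold down their own mRNA by splicing in exons that send it to nonsense-mediated decay. RBM3 and CIRBP are small glycine-rich RNA-binding proteins best known for their induction by mild cooling.

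Promoter sequence is shown for HNRNPM, SRSF1 and SRSF3, beside RBM3 and CIRBP. Among members with upstream sequence at hand, only the first 3 were at least 1.5-fold below their matched library in both comparisons of CCCP. RBM3 was also lower in both, at log2 ratios of -0.18 and -0.29, and CIRBP in neither. The RefSeq promoter table (GRCh38.p14) matched 30 of the 33 members, all but HNRNPA1, SRSF2 and TRA2A. Each line gives the 250 bases before the RefSeq start, on the gene's strand, with capitals marking matches on either strand to any of 7 motifs: ETS core CCGGAAG, NRF1 half-site GCATGCGC, E-box CACGTG, cyclic AMP element TGACGTCA, CCAAT box CCAAT, GC box GGGCGG, and TCCCCGCC, an element described for cold induction of CIRBP. Overlapping matches share capitals. The windows are chr19:8444725-8444974 (HNRNPM, plus strand), chr17:58007247-58007496 (SRSF1, minus strand), chr6:36594112-36594361 (SRSF3, plus strand), chrX:48574234-48574483 (RBM3, plus strand) and chr19:1269082-1269331 (CIRBP, plus strand). Each of these windows overlaps the gene's span in GENCODE 29, which starts before the RefSeq start, and so may hold transcribed bases. Bases just after the RefSeq start lay in a GENCODE transcript for 27 of the 30 matched members.
HNRNPM: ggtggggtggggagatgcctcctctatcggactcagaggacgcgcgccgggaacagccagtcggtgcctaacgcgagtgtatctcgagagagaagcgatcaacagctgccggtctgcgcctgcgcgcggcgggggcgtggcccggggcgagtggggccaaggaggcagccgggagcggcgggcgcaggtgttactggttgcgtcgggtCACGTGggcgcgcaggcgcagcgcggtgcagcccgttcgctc
SRSF1: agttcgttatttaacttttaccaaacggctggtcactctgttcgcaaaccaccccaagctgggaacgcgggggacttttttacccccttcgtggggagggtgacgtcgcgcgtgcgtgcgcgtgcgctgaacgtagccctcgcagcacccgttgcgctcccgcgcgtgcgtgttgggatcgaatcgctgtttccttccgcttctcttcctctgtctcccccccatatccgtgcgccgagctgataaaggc
SRSF3: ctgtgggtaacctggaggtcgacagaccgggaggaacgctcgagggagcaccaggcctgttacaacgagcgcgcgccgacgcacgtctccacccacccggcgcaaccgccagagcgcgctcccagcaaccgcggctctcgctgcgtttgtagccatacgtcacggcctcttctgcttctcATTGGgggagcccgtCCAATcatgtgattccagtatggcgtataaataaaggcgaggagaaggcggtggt
RBM3: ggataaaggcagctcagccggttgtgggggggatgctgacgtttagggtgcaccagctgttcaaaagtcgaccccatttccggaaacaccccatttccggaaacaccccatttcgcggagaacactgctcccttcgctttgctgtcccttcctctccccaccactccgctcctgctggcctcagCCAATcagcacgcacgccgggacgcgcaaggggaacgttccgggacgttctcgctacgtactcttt
CIRBP: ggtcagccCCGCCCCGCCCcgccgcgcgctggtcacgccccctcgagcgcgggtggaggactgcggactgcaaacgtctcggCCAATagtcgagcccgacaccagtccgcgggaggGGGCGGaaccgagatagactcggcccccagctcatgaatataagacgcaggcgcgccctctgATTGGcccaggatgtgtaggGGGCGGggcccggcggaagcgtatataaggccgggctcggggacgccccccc

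An E-box lay in the windows of 6 of 18 hnRNP members, HNRNPM among them, in 0 of 10 SR members and in 6.34% of 35116 promoters. A CCAAT box was found in 12 hnRNP windows, in 1 SR window, that of SRSF3, and in both cold-inducible windows, against 32% of all promoters. The GC box was found in 14 hnRNP, 4 SR and 1 cold-inducible window, against 42.6% of all. TCCCCGCC was in 5 hnRNP windows and in 7.75% of all, and no exact match lay in the windows of RBM3 or CIRBP. ETS cores were in 4 of the 30 windows, the NRF1 half-site in 1 and the cyclic AMP element in 0, against 8.52%, 2.63% and 1.65% of all promoters. The windows differed in base content, with a median GC of 66% for hnRNP members, 62% for SR members and 58% for all promoters. These matches describe letters only, and the shares were not adjusted for base content.

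Values were deposited as FPKM (fragments per kilobase of exon, scaled between libraries), so levels of different genes are compared per length. Reads recovered from them summed to between 16900411 and 18937286 per library, and each member held between 672 and 31600. Intervals are 95% exact binomial intervals on these reads and cover counting error only, since 1 library per group gives no spread between replicates. Of 10 melanocyte lineage markers, MITF and PMEL reached 1 FPKM, and PAX3, TYR, OCA2 and SLC45A2 were listed at 0 throughout. None of 7 leukocyte or 4 endothelial markers reached that level. KRT8 and KRT18 were the 2 epithelial markers of 6 at that level, and summed epithelial FPKM was 375 (control), 298 (CCCP), 344 (DHA) and 267 (combination). Fibroblast markers (3 of 8 measured, LUM at 0) summed to 32.6, 20.3, 18.6 and 8.99 FPKM in the same order. Short-lived transcripts had median log2 ratios to control of -0.03, 0.19 and 0.59 over 14 measured genes. The part of these differences in the values below was not tested.

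All 33 members were expressed, each with a mean of at least 5 FPKM. HNRNPA1, which binds exonic and intronic silencers and opposes SRSF1 at many 5′ splice sites, had the highest level in each library, at 308 FPKM in control. The C-rich-binding HNRNPK followed at 153 FPKM, then HNRNPUL1 at 118 and HNRNPA2B1 at 110. SRSF2, which recognises exonic enhancers, was the highest SR gene at 76.4 FPKM, and SRSF4 was the lowest of all members at 10.2. RBM3 stood at 84.2 FPKM in control and CIRBP at 25.7. Summed over the family, the hnRNP members had 1414 FPKM in the control library, 1183 in CCCP, 1444 in DHA and 1180 in the combination, and the SR members 413, 297, 370 and 276. All 33 together took 1.18%, 0.931%, 1.13% and 0.941% of reads in these libraries. In a bulk library, fewer cells holding a transcript and less of it per cell cannot be told apart. Ranks depend on the length used. Per kilobase of the longest coding transcript, a setting chosen after seeing the data, HNRNPA1 stayed first and HNRNPA2B1 moved to the second place, while SRSF2 went from rank 9 to 20.

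**Figure D1:**
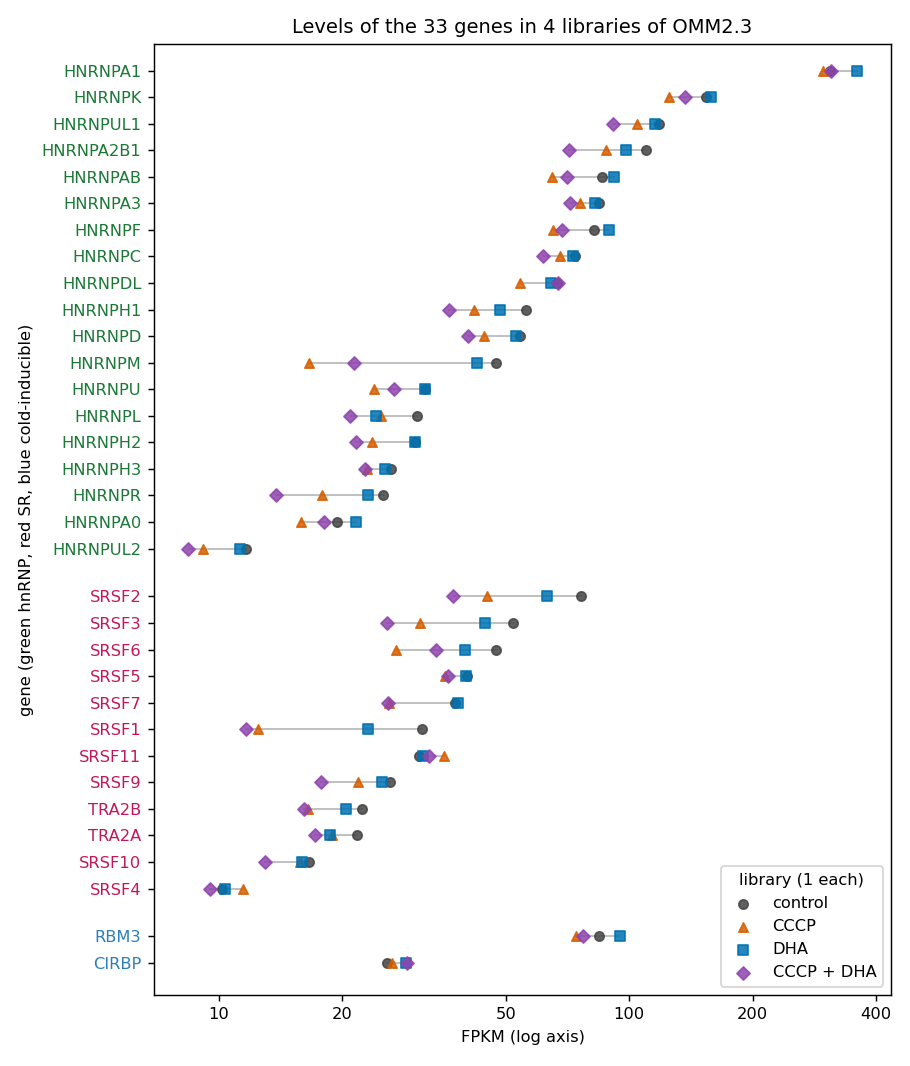
FPKM (log axis) of the 33 members in each of the 4 libraries, 1 symbol per library, ordered within families by the control level; grey lines join the lowest and highest library. HNRNPM and SRSF1 have the widest gaps, with the CCCP and combination libraries both far left of control and DHA.

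The uncoupler alone, read from CCCP against control, came with lower levels of most splicing factor mRNAs. All 19 hnRNP members and 10 of 12 SR members lay below control, with median log2 ratios, taken on log2(FPKM + 0.5), of -0.30 and -0.34. The median over all 13678 genes with at least 1 FPKM in a library was 0. A difference of at least 1.5-fold was met by 5 members (15.2%), all lower: HNRNPM, SRSF1, SRSF2, SRSF3 and SRSF6. That size was reached downward by 6.46% of all genes and by 3.45% of the 6760 with a mean of at least 5 FPKM. Upward it was reached by 0 members, 7.84% of all genes and 4.01% of the better expressed ones.

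HNRNPM, which binds GU-rich intronic elements and acts in the splicing of mesenchymal isoforms such as those of CD44 (ENSG00000099783, chromosome 19, 8444767 to 8489114 on GRCh38), had the lowest ratio of the members with CCCP. Its level was 47.2 FPKM in the control library, 16.6 in CCCP, 42.5 in DHA and 21.3 in the combination. Both libraries with CCCP were thus low and both without it high. It was 2.84-fold (interval 2.69 to 3.01) lower with CCCP than in control, and only 11 of the 6760 better expressed genes ranked below it. With DHA present in both libraries the same difference was 1.99-fold (1.89 to 2.1), and HNRNPM ranked 200 from the lowest of these 6760 genes. The next lowest hnRNP ratio with CCCP was that of HNRNPR, at a log2 value of -0.48, and the highest was that of HNRNPA1, at -0.05.

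SRSF1, the founding SR protein, which promotes use of proximal 5′ splice sites (ENSG00000136450, chromosome 17, 58003360 to 58007346), had 31.3 FPKM in the control library, 12.4 in CCCP, 23.1 in DHA and 11.7 in the combination. It was 2.52-fold (2.31 to 2.75) lower with CCCP and 1.35-fold (1.26 to 1.45) lower with DHA. The combination was 2.69-fold (2.46 to 2.94) lower than control. Its level in the combination differed from that with CCCP by less than the counting interval, 1.07-fold (0.958 to 1.19) lower.

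SRSF2 went 76.4, 45, 63.1 and 37.2 FPKM in control, CCCP, DHA and combination. SRSF3, the smallest of the family, which also acts in mRNA export and polyadenylation, had 52, 30.9, 44.4 and 25.7 FPKM in that order. For both genes the order of libraries was the same, with control highest, then DHA, CCCP and the combination. SRSF2 was 1.7-fold (1.61 to 1.79) lower with CCCP, and 2.06-fold (1.95 to 2.17) lower with the combination. SRSF3 was 1.68-fold (1.62 to 1.75) and 2.02-fold (1.94 to 2.11) lower.

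SRSF6, an enhancer-binding member, followed another order. It had 47.4 FPKM in the control library, 27 in CCCP, 39.7 in DHA and 33.8 in the combination. CCCP alone was therefore its lowest library, 1.76-fold (1.67 to 1.85) below control, and the combination lay 1.25-fold (1.18 to 1.32) above CCCP. SRSF7, which carries a zinc knuckle beside its RNA recognition motif, had 37.7, 26, 38.3 and 25.8 FPKM and was 1.45-fold (1.37 to 1.54) lower with CCCP, just short of the size rule.

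The remaining SR members differed less. TRA2B, an SR-like activator, was 1.35-fold (1.3 to 1.41) and its paralogue TRA2A 1.15-fold (1.06 to 1.24) lower with CCCP. SRSF9 lay 1.2-fold (1.11 to 1.28) below control and SRSF5 1.13-fold (1.08 to 1.18). The interval of SRSF10, which represses splicing when dephosphorylated, included 1, at 1.05-fold (0.997 to 1.1) lower. SRSF11 and SRSF4 were the 2 SR members above control, by 1.15-fold (1.11 to 1.2) and 1.12-fold (1.05 to 1.2). The SR family thus spread from a log2 ratio of -1.30 to 0.20, and the hnRNP family from -1.48 to -0.05. With the lowest member of each family left out, the ranges began at -0.80 (SRSF6) and -0.48 (HNRNPR).

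**Figure D2:**
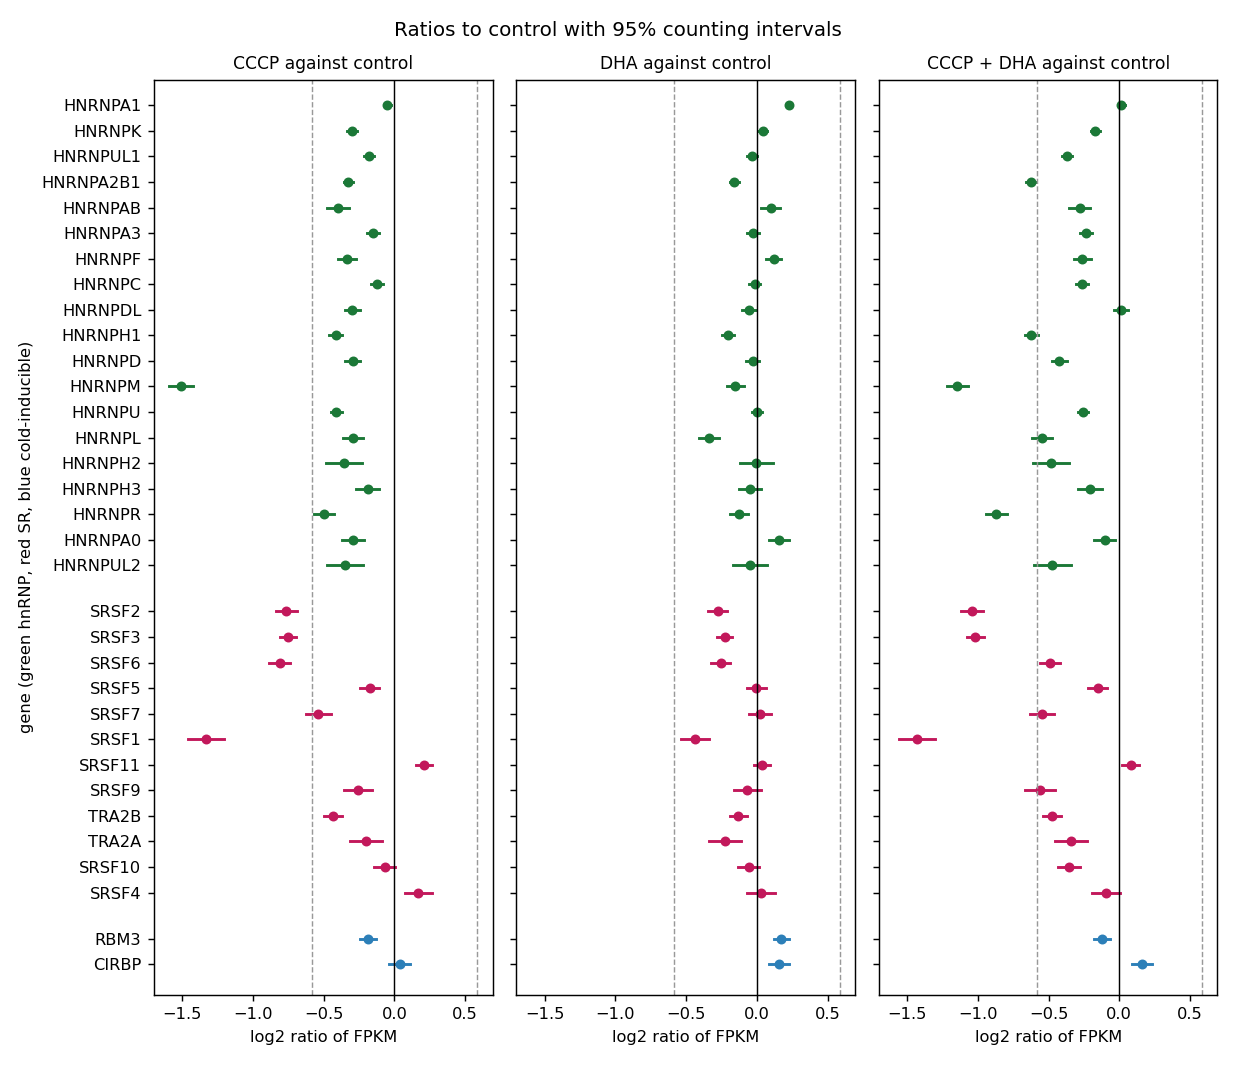
Log2 ratio of FPKM to control for each member with CCCP, DHA and the combination; points are ratios without pseudocount, bars 95% counting intervals, dashed lines 1.5-fold. HNRNPM, SRSF1, SRSF2, SRSF3 and SRSF6 pass the lower line with CCCP, none does with DHA, and RBM3 and CIRBP stay near 0 in all 3 panels.

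Among other hnRNP members, HNRNPU, a nuclear scaffold protein, was 1.33-fold (1.29 to 1.37) and HNRNPAB 1.32-fold (1.25 to 1.39) lower with CCCP. HNRNPF and HNRNPH1 bind runs of G. The former lay 1.26-fold (1.21 to 1.32) below control and the latter 1.33-fold (1.29 to 1.38). HNRNPK and HNRNPDL were each 1.23-fold lower (1.2 to 1.26 and 1.19 to 1.28). HNRNPL, which binds CA repeats, was 1.22-fold (1.17 to 1.29) lower. HNRNPA1 was nearest to control, 1.04-fold (1.02 to 1.05) lower, at 297 against 308 FPKM. The other members of this family had log2 ratios of -0.28 for HNRNPA0, -0.33 for HNRNPA2B1, -0.15 for HNRNPA3, -0.12 for HNRNPC, -0.29 for HNRNPD, -0.35 for HNRNPH2, -0.19 for HNRNPH3, -0.18 for HNRNPUL1 and -0.33 for HNRNPUL2. The counting interval of the ratio lay below 1 for all 19 members.

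With DHA alone, the members lay close to control. No member differed by 1.5-fold, which is near the background for genes of their level. Of the 6760 better expressed genes 0.828% were that much lower and 2.5% higher, and of all genes 4.15% and 4.43%. Median log2 ratios were -0.03 for the hnRNP and -0.10 for the SR members. SRSF1 at -0.43 and HNRNPL at -0.33 were lowest. SRSF2, SRSF6, SRSF3 and TRA2A followed at -0.28, -0.25, -0.23 and -0.22. HNRNPA1 was highest at 0.23, with 360 FPKM against 308, a 1.17-fold (1.15 to 1.19) difference. RBM3 and CIRBP came next at 0.17 and 0.15, then HNRNPA0 at 0.15, HNRNPF at 0.12 and HNRNPAB at 0.10.

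The joint response was read from the combination against control. Of the 33 members 7 (21.2%) were at least 1.5-fold lower, namely HNRNPA2B1, HNRNPH1, HNRNPM, HNRNPR, SRSF1, SRSF2 and SRSF3, beside 12.7% of all genes and 11.3% of the better expressed ones. No member was that much higher, against 11.1% of all genes and 9.23% of the better expressed ones. Median log2 ratios were -0.28 for the hnRNP and -0.47 for the SR members, against 0.01 over all genes. HNRNPR, an RNA-binding protein found in spliceosomal and axonal complexes, had 25.2 FPKM in the control library, 17.9 in CCCP, 23.1 in DHA and 13.8 in the combination, 1.83-fold (1.73 to 1.93) below control. HNRNPA2B1, which also sorts RNAs for transport, had 110, 87.6, 98.4 and 71.2 FPKM and was 1.54-fold (1.51 to 1.58) lower. HNRNPH1 went 55.9, 41.9, 48.4 and 36.3 FPKM, also 1.54-fold (1.49 to 1.59) lower. In these 3 genes the combination was the lowest library, while in HNRNPM and SRSF6 it was not.

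What each compound added to the other was read from 2 further comparisons. The combination against CCCP had 0 members past 1.5-fold, beside 8.87% of all genes higher and 12.4% lower (6.27% and 9.56% of the better expressed ones). The hnRNP and SR medians were -0.08 and -0.13. HNRNPM, SRSF6 and HNRNPDL were highest there, at 0.35, 0.32 and 0.31, and HNRNPR lowest at -0.36. The combination against DHA had 5 members at least 1.5-fold lower, HNRNPM, HNRNPR, SRSF1, SRSF2 and SRSF3, beside 9.38% of all genes and 8.03% of the better expressed ones. None was that much higher, against 7.64% and 3.79%. The family medians were -0.33 for hnRNP and -0.31 for SR.

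CCCP against control and the combination against DHA share no library, so the CCCP difference was measured in separate pairs. Of the 33 members 29 (87.9%) lay lower with CCCP in both pairs, 18 of them hnRNP, 10 SR and the other RBM3. The same held for 30.6% of all genes and 34.1% of those with a mean of at least 5 FPKM. HNRNPM, SRSF1, SRSF2 and SRSF3 were at least 1.5-fold lower in both pairs (12.1% of members), against 2.35% of all and 1.76% of the better expressed genes. For SRSF2 the log2 differences were -0.76 and -0.75, and for SRSF3 -0.74 and -0.78. HNRNPM had -1.48 and -0.98, and SRSF1 -1.30 and -0.96. SRSF11 (0.20 and 0.04) and CIRBP (0.03 and 0.01) lay above 0 in both pairs, and SRSF4 and HNRNPDL lay on opposite sides. Across the 33 genes, which are not independent replicates and share depth and scaling within each library, Pearson's r between the pairs was 0.826 and Spearman's rho 0.725, against 0.474 and 0.434 over the 6760 genes.

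**Figure D3:**
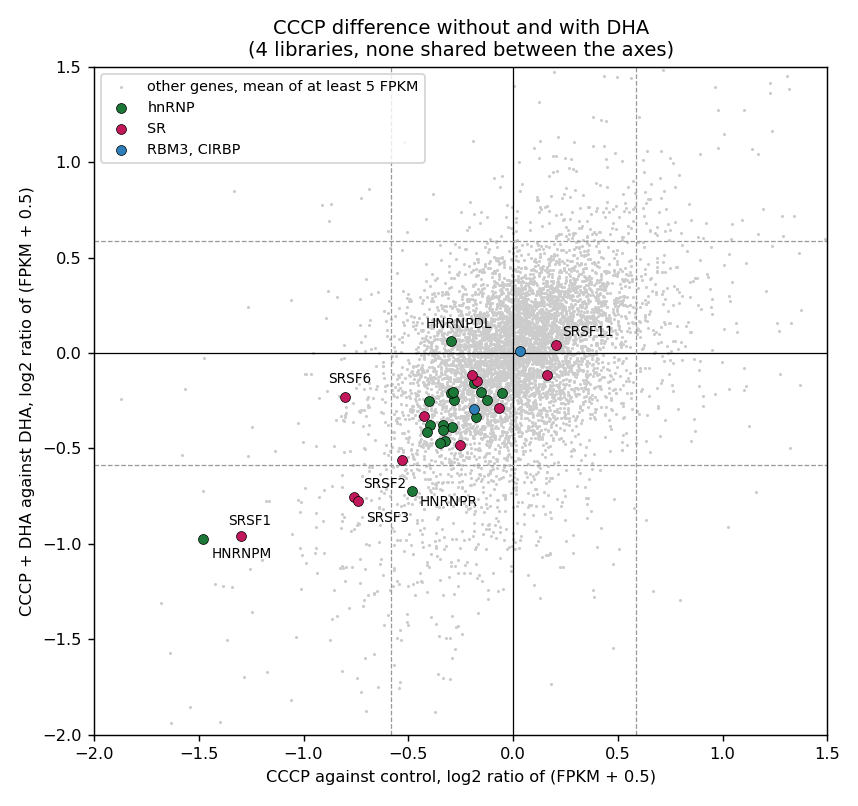
Log2 ratio of (FPKM + 0.5) for CCCP against control (x axis) and the combination against DHA (y axis), 1 point per gene, members in colour over the other genes averaging 5 FPKM or more in grey; genes beyond the axis ends are not drawn, and dashed lines mark 1.5-fold. HNRNPM, SRSF1, SRSF2 and SRSF3 lie past 1.5-fold lower on both axes, and 29 of 33 members lie below 0 on both.

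For DHA the corresponding pairs, DHA against control and the combination against CCCP, had 18 members lower in both, 7 higher in both and 8 on opposite sides. Of all genes 30.6% were lower in both and 32.1% higher in both, and of the better expressed ones 30.6% and 37.3%. RBM3 (0.17 and 0.06), CIRBP (0.15 and 0.12), HNRNPA1 (0.23 and 0.06), HNRNPA0 (0.15 and 0.19), HNRNPAB (0.10 and 0.12), HNRNPF (0.12 and 0.07) and HNRNPK (0.04 and 0.13) were higher in both, though HNRNPAB and HNRNPK lay below control with DHA when libraries were scaled to equal totals. No SR member was.

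An additive limma-trend fit over the 4 libraries tested each compound with 1 residual degree of freedom, which takes the departure from additivity as error. No member passed an adjusted p of 0.05 for either compound. Over all genes 0.0366% passed as higher and 0.0585% as lower with CCCP, and 0.095% and 0.00731% with DHA. Unadjusted, 14 of the 33 members (42.4%) had p under 0.05 for CCCP, against 14.5% of all genes, and 0 did for DHA, against 12.1%. HNRNPM had a log2 estimate of -1.23 (SE 0.17, limma adjusted p = 0.0891), lower in 2 of 2 pairs. SRSF1 had -1.13 (SE 0.15, limma adjusted p = 0.0784), also in 2 of 2. The adjusted p of these genes ranged from 3.61e-08 and 1.88e-06 with voom on recovered reads to 0.63 for both without a filter. With voom 7 members passed for CCCP (HNRNPM, HNRNPR, SRSF1, SRSF2, SRSF3, SRSF6 and SRSF7, all lower) and 0 for DHA. Over all genes voom called 2.16% higher and 3.27% lower for CCCP, and 1.97% and 2.92% for DHA.

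The departure of the combination from the sum of both compounds was below 1.5-fold for every member, whereas 19.8% of all genes and 11.5% of the better expressed ones exceeded it. It was largest for SRSF6 at 0.57, HNRNPM at 0.50, HNRNPDL at 0.36 and SRSF1 at 0.34 on the log2 scale. SRSF4 had the lowest value, -0.28. With 1 library per group these have no test.

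Both cold-inducible genes differed by less than 1.5-fold in every comparison, as did most members. RBM3 had 84.2 FPKM in the control library, 74 in CCCP, 94.9 in DHA and 77.4 in the combination. CIRBP had 25.7, 26.4, 28.6 and 28.8 FPKM. RBM3 was thus lower with CCCP, by 1.14-fold (1.09 to 1.18), and highest with DHA, while CIRBP was lowest in control. With DHA they were 1.13-fold (1.09 to 1.17) and 1.11-fold (1.06 to 1.17) above control. With CCCP the interval of CIRBP included 1, at 1.03-fold (0.974 to 1.08) higher, and its direction turned when libraries were scaled to equal totals. In the combination against DHA, RBM3 was at a log2 ratio of -0.29, near the family medians, and CIRBP at 0.01. Whether these 2 genes differ from the families was not tested.

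Other splicing genes were read from 7 further lists. Catalytic and tri-snRNP factors were all below control with CCCP (20 of 20), with a median log2 ratio of -0.23 and none at 1.5-fold. The Sm and LSm core, which forms the ring around small nuclear RNAs, had medians of -0.07 with CCCP and -0.30 with the combination, all 14 below control in the latter and LSM4, SNRPD1 and SNRPG at -0.63, -0.61 and -0.59. U1, U2 and 3′ splice site factors had medians of -0.10 and -0.19 over 21 genes. In that list U2AF2, which binds the polypyrimidine tract, was at -0.55 and -0.61, and SNRPA1 at -0.07 and -0.66. SR protein kinases and import factors had medians of -0.03 and 0.03 over 11 genes, with none at 1.5-fold. Nonsense-mediated decay and exon junction genes had -0.19 and 0.00 over 16 genes, with SMG6 at -0.71 and -0.80 and the helicase gene UPF1 at -0.28 and -0.60. Further hnRNP and SR-like genes had -0.15 and -0.14 over 17, with SRSF8 at -0.69 and -0.01. Other regulators had -0.12 and -0.07 over 15. With DHA alone the 7 medians lay between -0.03 and 0.07. The hnRNP and SR medians for CCCP against control were therefore below those of all 7 lists. In the combination against DHA the Sm and LSm core was lower, at -0.43 against -0.33 (hnRNP) and -0.31 (SR). In the combination against control its -0.30 lay between the hnRNP (-0.28) and SR (-0.47) medians. These are descriptions without a test.

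**Figure D4:**
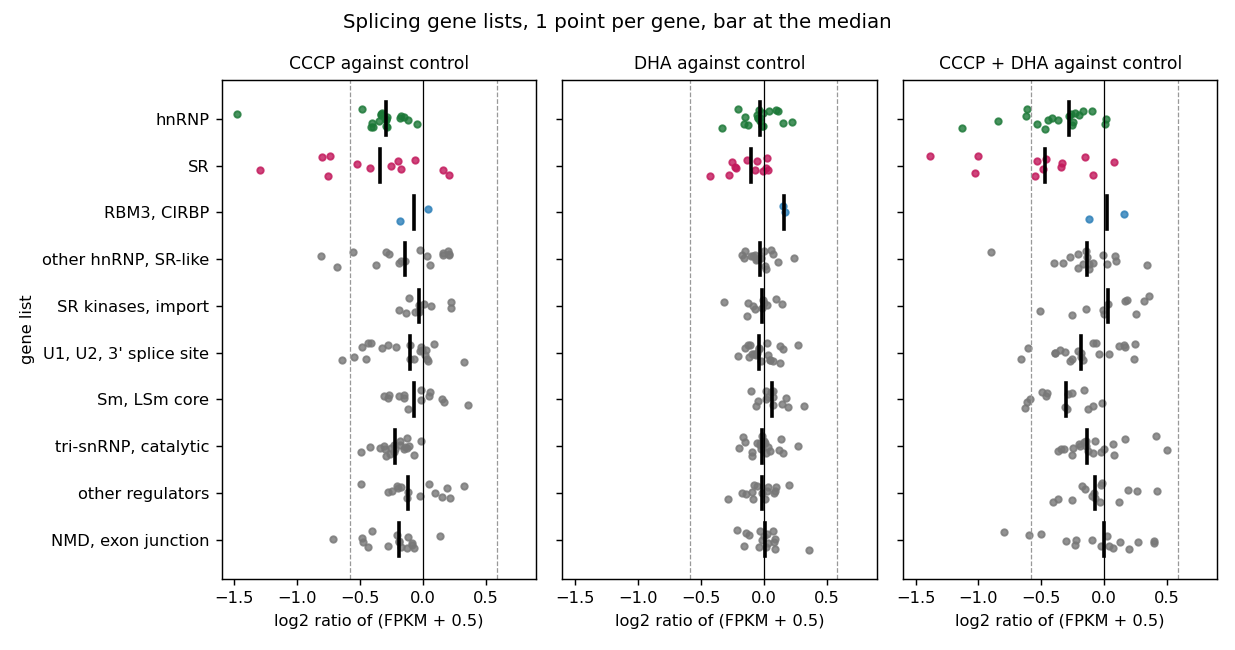
Log2 ratio of (FPKM + 0.5) to control for each measured gene of the hnRNP, SR and cold-inducible members (coloured) and 7 other splicing lists (grey); black bars are list medians and dashed lines 1.5-fold. The hnRNP and SR bars are furthest left with CCCP, at -0.30 and -0.34, and all bars lie near 0 with DHA.

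Copies of the members could draw reads from them. The annotation names 127 copies of 17 members by the parent's symbol with P and a number, 45 of which had reads and 13 at least 1 FPKM. HNRNPCP2, HNRNPA1P48 and HNRNPKP4 were the most abundant, with 15.3, 6.41 and 5.56 FPKM in control. Reads of all such copies came to at most 3.27% of the parent's in any library. HNRNPM and SRSF1 copies held at most 1 read. The sources used here do not say whether reads were counted by strand, so HNRNPA2B1 may share reads with CBX3 and HNRNPUL1 with TGFB1 on the opposite strand, which had 60.7 and 85.9 FPKM in control. Other members, such as HNRNPH3, HNRNPAB and SRSF9, also overlapped expressed genes on the opposite strand. RUFY2 had 615 reads in control, against 2741 for HNRNPH3, which it overlaps. The genes overlapping HNRNPM and SRSF1 had at most 1 and 42 reads, against 5161 and 2037 for the members in control.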

How the data were processed

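Messenger RNA levels were measured by RNA sequencing in 4 OMM2.3 libraries made with an Illumina TruSeq kit, per the labels' protocols. The authors deposited FPKM per gene, per the file headers; the aligner, counter and build were not given in the sources used here. The 58735 identifiers all matched GENCODE 29 (GRCh38). Reads were recovered because FPKM times summed exon length fell on whole steps, within 0.01 reads, for 100% of values above 0, and the deposited FPKM already carried median-of-ratios scaling. Ratios used log2(FPKM + 0.5) for the 13678 genes that reached 1 FPKM in any library; folds with intervals are FPKM ratios, bounded by 95% exact Clopper-Pearson limits on the reads of the libraries compared. The additive test was limma-trend (limma 3.58.1, R 4.3.3) with Benjamini-Hochberg adjustment over all genes. On simulated data with 4-fold changes it recovered 199 of 200 changed genes for each compound. It also made 37 false calls for CCCP and 29 for DHA. The simulation had no departure from additivity built in, so it does not show how the test behaves where there is one. Nor does it show recovery at the sizes seen in the members, which differed by at most 2.84-fold (HNRNPM, CCCP against control). Python 3.11.15 with pandas 2.3.3 and scipy 1.17.1 did the rest.

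The members and lists were chosen with earlier results of these data known, and the counts over both CCCP pairs and the promoter motifs were chosen after seeing the data. All members could be named, and of each other list up to 4 genes that averaged 1 FPKM or more and differed from control by at least 1.5-fold, and the 3 most abundant pseudogenes. Alternatives were a 2-fold rule, 2 scalings, other pseudocounts (0.1 and 1), the filter dropped or raised to an average of 5 FPKM, limma without trend, and voom.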

Additional observations from a re-analysis of the deposited data

Results flagged for a closer look

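In 4 members a compound's difference had opposite directions without and with the other compound, both counting intervals excluding 1. The difference between the pairs was not tested. HNRNPDL was at a log2 ratio of -0.30 for CCCP against control and 0.062 for the combination against DHA, and at -0.052 for DHA against control and 0.31 for the combination against CCCP. SRSF4 was at 0.16 for CCCP against control and -0.12 for the combination against DHA. HNRNPM was at -0.15 for DHA against control and 0.35 for the combination against CCCP, and SRSF6 at -0.25 and 0.32.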

How the results depend on the processing

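Under pseudocounts of 0.1 and 1, no filter and rescaling by median of ratios, every count of members stayed within 1.5 times its value and every family median kept its direction. The last 2 settings could hardly change these, as the median-of-ratios factor was 1.01 in every library and all members passed the filter. A 2-fold rule left 2 members lower with CCCP, 4 with the combination against control, 0 with the combination against DHA and 0 in both CCCP pairs. Equal totals shift the median of all genes by -0.10 for CCCP, -0.09 for DHA, 0.06 for the combination against DHA and 0.08 for the combination against CCCP. The hnRNP and SR medians then became -0.41 and -0.45 with CCCP, -0.13 and -0.20 with DHA, and -0.27 and -0.24 for the combination against DHA, and 29 members still lay lower in both CCCP pairs. With equal totals HNRNPAB, HNRNPK, SRSF4, SRSF7 and SRSF11 had the other sign for DHA, CIRBP for CCCP, HNRNPA1 and HNRNPDL for the combination against control, and HNRNPH3, SRSF7 and TRA2B for the combination against CCCP. The share of higher among all genes past 1.5-fold went from 54.9% to 40.8% with CCCP and from 51.6% to 41.3% with DHA. The additive fit for CCCP called 0 members as given, 2 among genes averaging 5 FPKM or more (fewer genes tested), 4 with equal totals and 7 with voom; the cause of the last 2 was not tested. Over all genes it called 5 higher and 8 lower as given, 29 and 60 at that higher level, 185 and 323 with equal totals, and 295 and 447 with voom. Fits without 1 library were not run, as they leave no residual degree of freedom. Depth does not limit these members, but the single library per group does.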

Other observations

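HNRNPUP1, a processed pseudogene of HNRNPU chosen after its values were seen, had 4 reads in the control library, 6 in CCCP, 13 in DHA and 20 in the combination, while HNRNPU itself had 31.8, 23.9, 31.8 and 26.7 FPKM. At this depth the pseudogene rests on few reads.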
